A study of Mus musculus with 157 samples.

Results

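Polysome gradients of activated B cells were compared with and without etoposide, gene by gene, through a single quantity: how much of an mRNA lay in heavy polysomes relative to monosomes. Of 157 libraries in the series, 80 entered this ratio. They were the 32 monosome libraries (fractions 4 to 7) and the 48 heavy polysome libraries (fractions 11 to 16) from 8 of the 12 gradients, 4 of B cells given lipopolysaccharide (LPS) and 4 of B cells given LPS and then etoposide (LPS+ET). Each library was scaled to CPM (its counts divided by the library total, times 1000000), and the log2 ratio of the mean heavy CPM to the mean monosome CPM was taken per gradient, with 0.5 CPM added to both means. A value of 0 means equal CPM in both classes, and a positive value means more in the heavy polysomes. The ratio was taken for 8000 of 19600 genes, those with 1200 or more counts in fractions 4 to 16 of the 12 gradients, and 7660 of them were protein coding.

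In a sucrose gradient, mRNAs spread out by the number of ribosomes they carry. Monosomes hold a lone ribosome and polysomes hold several, so that an mRNA engaged by many ribosomes moves down to the heavy fractions, while a short coding sequence has room for fewer ribosomes. The heavy-to-monosome ratio of an mRNA is therefore a common readout of how it is loaded with ribosomes. As a quotient, it does not in principle depend on how much of that mRNA there is. The 0.5 CPM added here shrinks it for mRNAs with few counts. Etoposide holds topoisomerase II on cut DNA and so causes breaks, to which cells respond through the kinase ATM and the transcription factor p53.

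The cells were splenic B cells of C57BL/6Babr mice, isolated with a kit and kept for 48 h with LPS at 10 µg/ml, a bacterial stimulus that makes B cells divide. In the LPS+ET group etoposide was given at 20 µM for 4 h. Both groups, and the further LPS+ET+KU group that also received the ATM inhibitor KU55933 (10 µM for 1 h ahead of etoposide, with 47 h of LPS), had cycloheximide at 100 µg/ml for 3 min before lysis, which holds ribosomes in place. The study describes 4 biological replicates. The labels name neither animals nor days for them, so that the p-values here measure the spread between these gradients. Gradients are named here by treatment and by the tag of their library pool (LUL15, LUL16, LUL17 or LUL18), with every treatment once in a pool.

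The 80 libraries held 14724 to 3403708 counts (median 670694), and 11 held fewer than 100000, 4 of LPS and 7 of LPS+ET. The LPS+ET gradient of LUL16 stood apart. It had 4 of those small libraries and 30.4% of its counts in heavy polysomes, against 60.6 to 68.2% in the other LPS+ET gradients and 52.3 to 62.4% in the LPS gradients. Equal RNA concentrations went into each library, so these totals do not measure how much mRNA a fraction held. The summed CPM of 7 B cell markers ran from 6623 to 9490 in LPS and from 7283 to 9862 in LPS+ET. That of 8 T cell markers, of which 6 were in the table, ran from 0.434 to 3.40 and from 0.769 to 3.12, and that of 8 myeloid markers, of which 7 were in the table, from 53.4 to 138.5 and from 95.4 to 223.8. None of the listed genes in the table was at 0 in either group, and the part of myeloid cells in the results below was not tested. In such bulk samples, fewer cells of a type and less of an RNA per cell cannot be told apart.

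The middle of the distribution overlapped between groups, while single mRNAs differed in both directions. Each library was scaled to its own total, so a common shift of all mRNAs out of heavy polysomes cannot show in the median ratio. The study reports that etoposide reduced polysome assembly globally, and the tests of this paragraph cannot address that. The median ratio over the 8000 genes was 0.79, 0.72, 1.00 and 0.90 in the LPS gradients of pools LUL15 to LUL18 and 0.82, 0.55, 0.98 and 0.92 in the corresponding LPS+ET gradients. The groups overlapped throughout, with means of 0.85 ± 0.12 and 0.82 ± 0.19 (SD, n = 4; exact permutation test, two-sided, p = 0.800, adjusted p = 0.960 over 6 measures of the gradients). In the same exact permutation test, whose smallest possible p is 0.0286, p was 0.286 for the total counts of a gradient, 0.486 for its heavy counts, 0.0571 for its monosome counts and 1.00 for its heavy share.

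Single genes were tested with limma on all 12 gradients, where the LPS+ET gradients were compared with the LPS gradients and p-values were adjusted over the 8000 genes by the Benjamini-Hochberg method. At an adjusted p under 0.05, 497 genes (6.21%) were called, 203 (2.54%) with a higher ratio in LPS+ET and 294 (3.67%) with a lower one. At the stricter 0.01 used in the study, 135 genes (1.69%) were called, and 1806 had an unadjusted p under 0.05. The LPS+ET gradients lay above all LPS gradients for 387 genes (4.84%) and below all of them for 591 genes (7.39%). The median difference over all 8000 genes was -0.03 on the log2 scale, over the 203 genes 1.20 and over the 294 genes -1.26. A difference of more than 1 in size, a 2-fold shift in the ratio, was seen for 147 and 219 of them. Without the LPS gradient of LUL15, 267 genes were called. The test of each gene used a spread shared over all 12 gradients, LPS+ET+KU included. Correlations of ratios between gradients were 0.72 to 0.858 in LPS, 0.603 to 0.819 in LPS+ET and 0.837 to 0.926 in LPS+ET+KU. With only the 8 LPS and LPS+ET gradients fitted, 282 genes were called. Of 109 called genes that are named, 38 lost their call in that fit, among them Cdkn1a, Dnajb1, Nsdhl, Slc16a3, Vars, Zhx2 and Msrb2. In what follows a difference is LPS+ET minus LPS on the log2 ratio scale with its SE (n = 4 per group), a number after it in parentheses is its adjusted p, and gene positions are those of GRCm38.

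**Figure D1:**
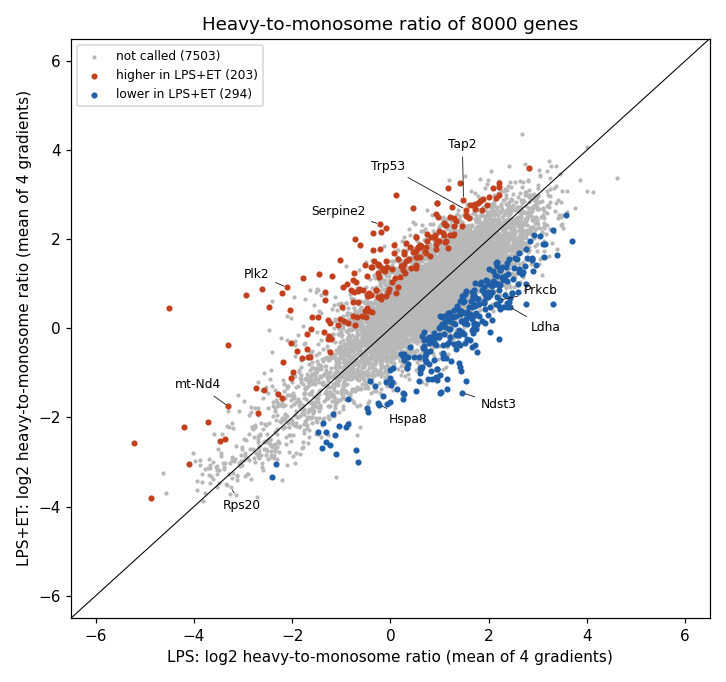
Log2 heavy-to-monosome ratio of 8000 genes in LPS (horizontal, mean of 4 gradients) and LPS+ET (vertical, mean of 4 gradients), with genes called higher (203) in red and lower (294) in blue. Most genes lie along the line of equal ratios, Ldha and Prkcb lie below it, and Serpine2 and Tap2 lie above it.

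Called genes were picked by the quotient of heavy to monosome CPM. Opposite medians in these classes follow in part from that choice and are no separate evidence. For the 203 genes called higher, the median difference on the log2 CPM scale was 0.59 in heavy polysomes and -0.72 in monosomes. Among the 294 called lower these medians were -0.53 and 0.76. The monosome value differed by more than the heavy value in 113 of 203 and 176 of 294 genes. Tested on its own, the heavy value was called for 68 of the 203 and 83 of the 294. The monosome value was called for 62 and 91 of them. Light polysomes (fractions 8 to 10) were tested in the same way. The light-to-monosome ratio was called for 285 genes (3.56%) and the heavy-to-light ratio for 122 genes (1.52%). Over the 203 genes called higher the median difference was 0.80 from monosomes to light polysomes and 0.39 from light to heavy polysomes, and over the 294 called lower it was -0.68 and -0.59. Leaving out 1 gradient gave 170 to 336 calls in the first of these ratios and 37 to 150 in the second. Both ratios share fractions with the heavy-to-monosome ratio and are no independent evidence of it.

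Trp53 (ENSMUSG00000059552, chromosome 11, 69580359 to 69591873), which encodes p53, had ratios of 1.34, 1.67, 1.39 and 1.74 in the LPS gradients of pools LUL15 to LUL18 and 2.88, 2.10, 3.16 and 2.53 in LPS+ET. All LPS+ET gradients lay above all LPS gradients. The ratio rose by 1.13 ± 0.24 (SE, n = 4 per group, adjusted p = 0.00943), as the heavy CPM went from 379 ± 107 to 512 ± 51.3 and the monosome CPM from 128 ± 23.6 to 85 ± 34 (SD). Most of this step lay between monosomes and light polysomes, with a light-to-monosome difference of 0.85 (adjusted p = 0.00904) against 0.29 (adjusted p = 0.421) from light to heavy. With the heavy class cut to fractions 11 to 13 or to fractions 14 to 16, the Trp53 call was lost (differences of 1.14 and 0.98).

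Of 40 listed p53 target genes, 25 were measured. The ratio rose in 3 and fell in none, where 2.54% and 3.67% of all genes did, and the median difference was 0.44, with 9 of the 25 differences below 0. The list median was 0.15, 0.28, 0.40 and 0.31 in the LPS gradients and 0.61, 0.43, 0.86 and 0.89 in LPS+ET, without overlap. On the log2 CPM scale these mRNAs differed by medians of 2.43 in heavy polysomes and 2.03 in monosomes, so that most of their change was one of amount in both classes. Cdkn1a (ENSMUSG00000023067, chromosome 17, 29090979 to 29100722), the cell cycle inhibitor p21, had ratios of -1.28, -0.33, 0.80 and -1.83 in LPS and 0.63, 0.41, 1.26 and 1.09 in LPS+ET, with an overlap through the LPS gradient of LUL17. Its ratio rose by 1.51 ± 0.39 (adjusted p = 0.0277), while its heavy CPM went from 32.4 ± 16.6 to 713 ± 165 and its monosome CPM from 56.2 ± 37.7 to 391 ± 52.5. Phlda3, an inhibitor of the kinase Akt, went from -0.20, 0.04, -0.63 and -1.79 to 0.41, 0.45, 1.42 and 1.30, with no overlap and a rise of 1.54 ± 0.35 (adjusted p = 0.0139). Neither was called once libraries under 100000 counts (small libraries) were left out (differences of 0.98 and 0.64), a setting under which 3 genes of the list rose. Plk2, a polo-like kinase, rose by 3.03 ± 0.68 (adjusted p = 0.0133) from 19 monosome and 21 heavy counts in all 4 LPS gradients. Gadd45a, a further p53 target that the study follows, had fewer than 1200 counts and was not tested. Leaving out a single gradient ended the call of Cdkn1a (LPS LUL15, LPS LUL18, LPS+ET LUL17 or LPS+ET LUL18, difference 1.12 to 1.43).

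Outside the list, Serpine2 and Zfp385a had higher ratios under all 26 alternative settings tried. Serpine2 (ENSMUSG00000026249, chromosome 1, 79794197 to 79858696), a secreted protease inhibitor, had ratios of -0.94, 0.09, 0.99 and -1.005 in LPS and 2.04, 2.39, 2.49 and 2.44 in LPS+ET. The rise of 2.56 ± 0.34 (adjusted p = 0.000946) left no overlap, and it came with a heavy CPM that went from 13.7 ± 3.76 to 353 ± 85.5 and a monosome CPM from 16.7 ± 7.19 to 68.8 ± 12.8. Zfp385a (ENSMUSG00000000552, chromosome 15, 103313895 to 103340086), a zinc finger protein known to act with p53, went from -0.31, 0.21, -0.92 and -0.49 to 1.45, 0.84, 1.72 and 1.53. Its ratio rose by 1.76 ± 0.28 (adjusted p = 0.00251), again without overlap.

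**Figure D2:**
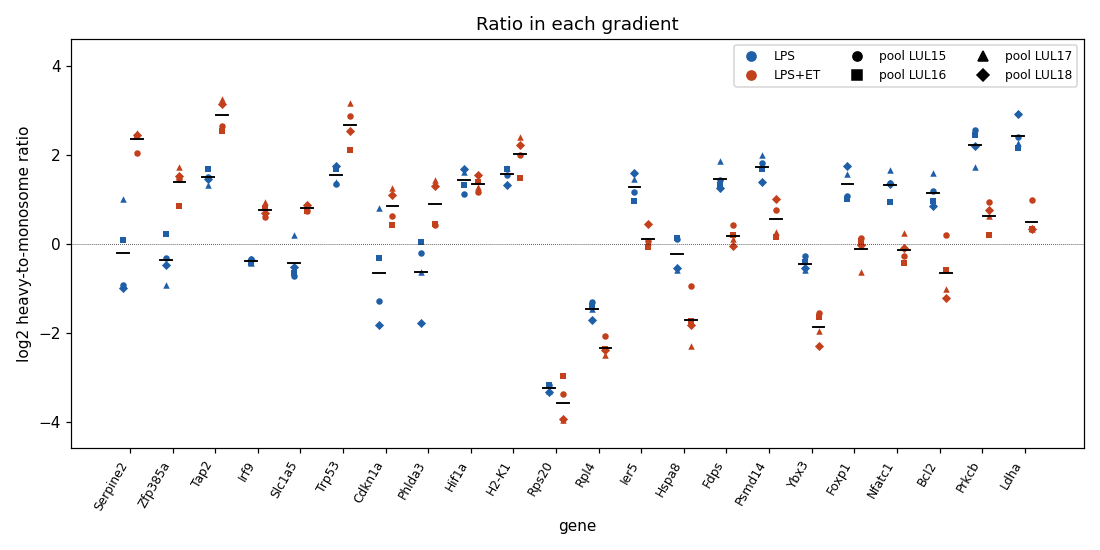
Log2 heavy-to-monosome ratio (vertical) of 22 genes in each LPS (blue) and LPS+ET (red) gradient, with a marker shape per pool and a bar at each group mean. Serpine2, Zfp385a, Tap2 and Irf9 are higher in all 4 LPS+ET gradients, Ldha, Prkcb, Bcl2 and Hspa8 are lower in all 4, and Hif1a and Rps20 overlap.

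Among the other mRNAs the study follows, none passed the test as set here. For Hif1a and H2-K1 the study reports a rise in heavy polysomes with etoposide. Its test was made on fractions of the gradient and not on this ratio. Hif1a, the oxygen-regulated factor that drives glycolytic genes, had ratios of 1.12, 1.31, 1.60 and 1.68 in LPS and 1.16, 1.38, 1.26 and 1.54 in LPS+ET, a difference of -0.10 ± 0.23 (adjusted p = 0.846). H2-K1, a class I antigen-presenting molecule, differed by 0.46 ± 0.23 (adjusted p = 0.25) and was called by DESeq2 on counts summed per class (0.53). Its LPS+ET values were 2.00, 1.47, 2.39 and 2.22, and all but that of LUL16 lay above the LPS values of 1.54, 1.68, 1.70 and 1.31. Ccnd2, the G1 phase cyclin D2, differed by -0.67 ± 0.27 (adjusted p = 0.139), Tial1, a relative of the RNA-binding protein Tia1, by -0.42 ± 0.30 (0.429), Tia1 by 0.20 ± 0.38 (0.805) and Pabpc1, the poly(A)-binding protein, by -0.15 ± 0.24 (0.761). Ccnd2 was called lower with TMM (-0.89) or median-of-ratios scaling (-0.88), without libraries under 100000 counts (-0.89), by edgeR (-0.99) and by DESeq2 (-0.95). For Hif1a, Tia1 and Pabpc1 the sign depended on the setting.

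Among the falls with the lowest adjusted p was that of Ldha, a glycolysis gene, which shared its value with the pseudogene Gm12671 described below. Ldha (ENSMUSG00000063229, chromosome 7, 46841475 to 46855627), the enzyme that turns pyruvate into lactate, had ratios of 2.39, 2.15, 2.26 and 2.90 in the LPS gradients of pools LUL15 to LUL18 and 0.97, 0.32, 0.32 and 0.32 in LPS+ET. The LPS+ET values were all below the LPS values, and the ratio fell by 1.94 ± 0.22 (adjusted p = 0.000171), under every alternative setting. Its heavy CPM was 327 ± 31.4 and 251 ± 116, while its monosome CPM was 62.4 ± 17.4 and 182 ± 98.6. In the profile by fraction, Ldha peaked in fraction 13 in both groups, at 549 CPM in LPS and 509 CPM in LPS+ET, and LPS+ET was higher in fraction 7 (239.9 against 87.8 CPM) and lower in fraction 14 (228 against 428 CPM).

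**Figure D3:**
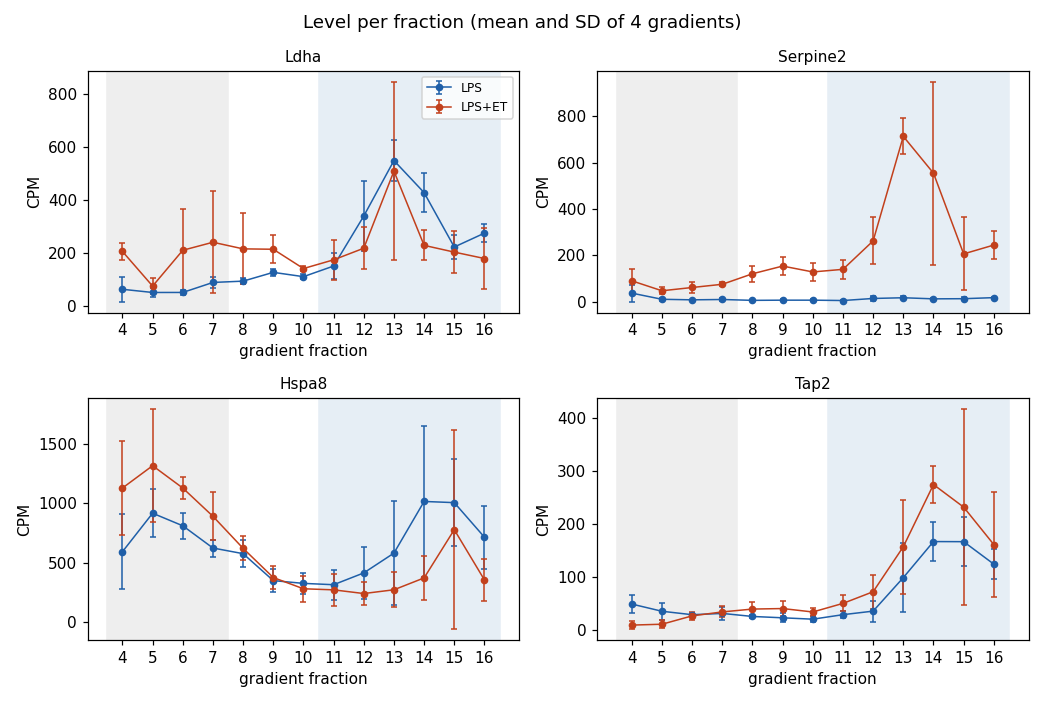
Mean CPM (vertical, points, with SD as error bars) of Ldha, Serpine2, Hspa8 and Tap2 in fractions 4 to 16 (horizontal) of LPS (blue) and LPS+ET (red), 4 gradients each. Ldha and Hspa8 had higher LPS+ET means in the monosome fractions, Serpine2 was higher in every fraction with its top in fraction 13, and Tap2 was lower in fractions 4 and 5 and higher in fractions 11 to 16. Grey and blue shading mark the monosome and heavy fractions.

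Aldoa, the glycolytic aldolase, had ratios of 0.62, 0.65, 1.21 and 0.96 in LPS and -0.05, -0.13, -0.58 and -0.41 in LPS+ET and fell by 1.16 ± 0.22 (adjusted p = 0.00601). Pdk1, which restrains entry of pyruvate into mitochondria, differed by -1.70 ± 0.40 (0.0181), and Hk1, a hexokinase, by -1.22 ± 0.29 (0.0173), both without overlap. Of 19 measured genes of glycolysis and Hif1a, 4 fell and 2 rose, against 3.67% and 2.54% of all genes, with a median difference of -0.33. Those that rose were the lactate exporter Slc16a3 (1.08 ± 0.29, adjusted p = 0.0332) and the glucose transporter Slc2a3, which is outside the naming rule and is given because the count is small. With the small libraries left out, 3 fell and 1 rose, and Pdk1 (-1.13) was not called. Removal of 1 gradient ended the call of Slc16a3 (LPS LUL16, LPS LUL18, LPS+ET LUL15 or LPS+ET LUL17, difference 0.88 to 1.04).

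Counts of Gapdh, a further glycolytic enzyme, could not be read at the gene itself, which held 259 counts. The mouse genome carries many near-identical copies of it, and whether they took up its reads was not tested. The table instead listed 25 annotated copies with enough counts, 24 of them pseudogenes, which matched the Gapdh mRNA over the aligned stretch at 87.1 to 100% identity. Of these, 18 were called lower and none higher. Near-identical copies can share reads, so these calls are not taken as independent. Summed over the 25 copies, which were picked after their values had been seen and so carry no test, the log2 ratio was 0.46, 0.87, 0.83 and 0.40 in the LPS gradients and -0.26, 0.49, -1.59 and -1.11 in LPS+ET. The LPS+ET gradient of LUL16 lay within the LPS range and the other 3 below it. The summed monosome CPM was 1346 ± 293 in LPS and 2440.0 ± 565 in LPS+ET (SD, n = 4) and the heavy CPM 2080.0 ± 344 and 1997 ± 1695. Among 199 measured pseudogenes, 26 fell and 8 rose (median -0.11), where 3.67% and 2.54% of all genes did. Of the 26, 17 were Gapdh copies. Gm12671, Gm4609 and Gm3222, the called pseudogenes with the lowest adjusted p among those that fell, differed by -2.73 ± 0.30, -2.02 ± 0.24 and -2.45 ± 0.32, and each was a Gapdh copy.

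Of the cytosolic chaperones 4 fell. Hspa8 (ENSMUSG00000015656, chromosome 9, 40800984 to 40805200), the constitutive Hsc70 chaperone that binds nascent chains, had ratios of 0.10, 0.13, -0.59 and -0.54 in LPS and -0.96, -1.74, -2.31 and -1.84 in LPS+ET, which did not overlap. Its ratio fell by 1.49 ± 0.26 (adjusted p = 0.00395), also in every alternative. Tcp1 and Cct4, subunits of the CCT ring that folds actin and tubulin, differed by -1.22 ± 0.26 (0.00942) and -1.05 ± 0.21 (0.00811), and the Hsp70 partner Dnajb1 by -1.31 ± 0.34 (0.0261). These were the 4 called genes among 19 measured chaperones, none of which rose, where 3.67% of all genes fell, and the median difference was -0.43. Without the LPS+ET gradient of LUL16 3 chaperones fell, and without the small libraries Dnajb1 (-0.66) was not called. The list medians per gradient overlapped between groups. Tubb5 (ENSMUSG00000001525, chromosome 17, 35833926 to 35838306), the beta tubulin that is a client of CCT, was the only one called of 29 kinesins and tubulins. It went from 0.76, 0.83, 0.61 and 0.42 to 0.13, -0.60, -0.79 and -0.48 and fell by 1.09 ± 0.22 (adjusted p = 0.00796). Leaving out a single gradient ended the call of Dnajb1 (LPS LUL17, LPS LUL18, LPS+ET LUL16 or LPS+ET LUL17, difference -1.24 to -1.10).

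Of 35 proteasome subunits, 3 fell and 1 rose, where 3.67% and 2.54% of all genes did, with a median of -0.15. Without the LPS+ET gradient of LUL16 1 fell and 1 rose. Psmd14, the deubiquitinase of the lid, went from 1.81, 1.68, 1.99 and 1.38 to 0.75, 0.15, 0.27 and 1.01 and fell by 1.17 ± 0.22 (adjusted p = 0.00545), under all alternatives. The core subunit Psma6 (-0.69 ± 0.19, 0.0332) and the lid subunit Psmd6 (-0.98 ± 0.27, 0.0402) also fell. The subunit that rose was Psmb9, of the immunoproteasome, described with antigen presentation below. In cholesterol synthesis and uptake, 3 of 22 genes fell and none rose, while the median was -0.05. Fdps, the farnesyl diphosphate synthase, had ratios of 1.42, 1.31, 1.85 and 1.26 in LPS and 0.41, 0.20, 0.09 and -0.06 in LPS+ET, with a fall of 1.30 ± 0.20 (adjusted p = 0.00163). Mvd, an earlier enzyme of the same route, went from 0.20, 0.39, 0.39 and 0.38 to -0.59, -0.30, -1.52 and -1.15 (-1.23 ± 0.28, adjusted p = 0.0154). Nsdhl, a later one, differed by -1.11 ± 0.32 (adjusted p = 0.0447) with overlapping gradients and was not called without the small libraries (-0.73). The pseudogene Gm3571 matched Fdps at 98.9% identity and was called lower with it. Calls that did not survive the removal of 1 gradient were those of Psma6 (any but LPS+ET LUL18, difference -0.74 to -0.58), Psmd6 (any but LPS+ET LUL17, -1.04 to -0.67) and Nsdhl (any but LPS LUL18 and LPS+ET LUL15, -1.13 to -0.91).

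**Figure D4:**
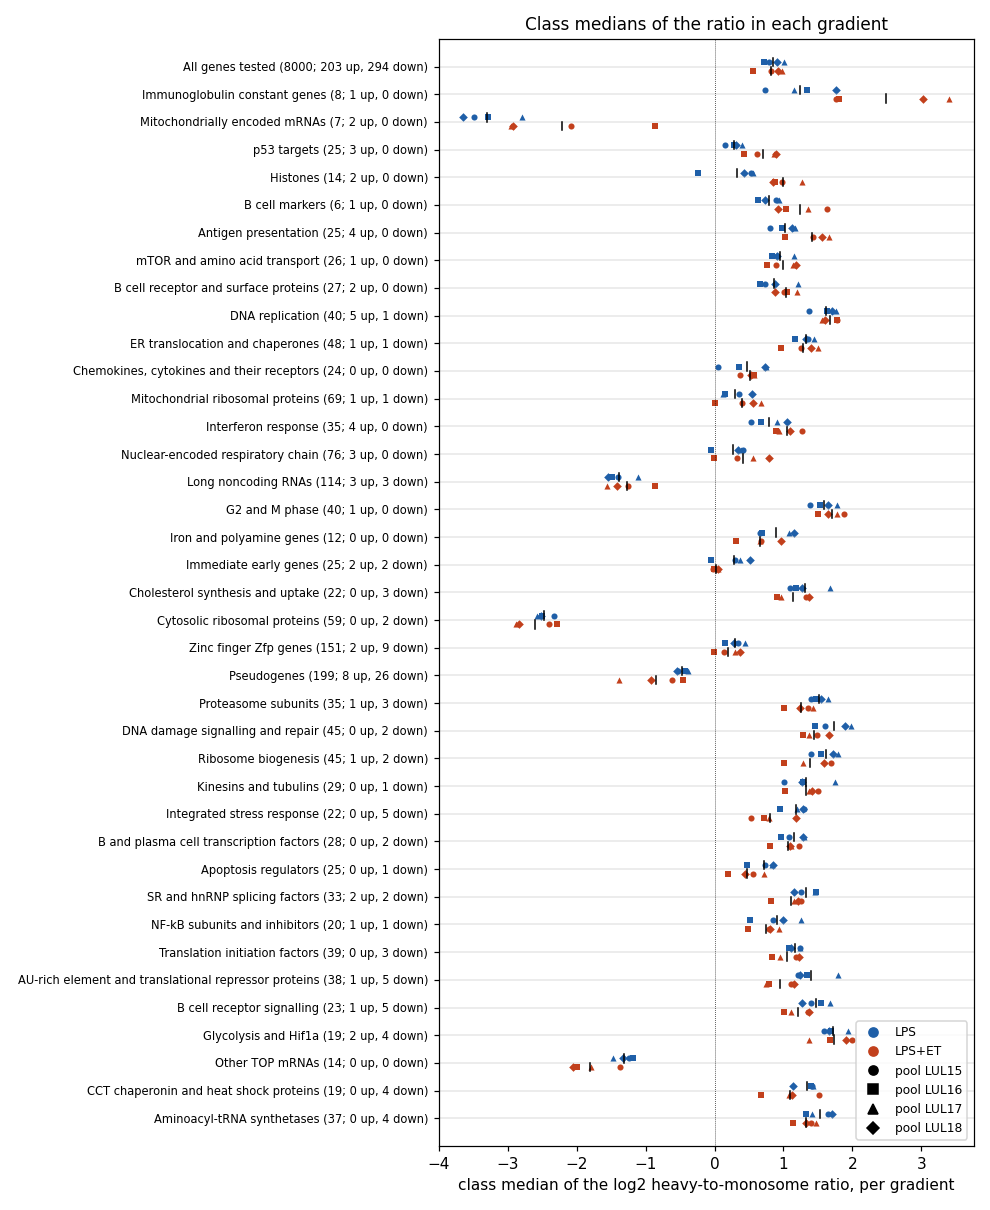
Median log2 heavy-to-monosome ratio (horizontal) of each gene list in each LPS (blue) and LPS+ET (red) gradient, with a marker per pool, a bar at the group mean, and the number of genes measured and called beside each name. Mitochondrially encoded and ribosomal protein mRNAs sit lowest in both groups, immunoglobulin constant genes and mitochondrially encoded mRNAs have the largest median differences between groups (1.37 and 1.07), and most lists overlap between groups.

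The translation machinery was described in 5 lists. Ribosomal protein mRNAs begin with a terminal oligopyrimidine (TOP) tract and are known to move between monosomes and polysomes with growth signals. All their list medians were far below 0, at -2.33, -2.50, -2.57 and -2.51 in LPS and -2.40, -2.28, -2.88 and -2.84 in LPS+ET, and the groups overlapped. Of 59 measured, 2 fell and none rose, where 3.67% and 2.54% of all genes did, with a median difference of -0.07. Rpl4, of the large subunit, went from -1.32, -1.41, -1.46 and -1.73 to -2.08, -2.37, -2.51 and -2.39 (-0.86 ± 0.21, adjusted p = 0.0187), and Rpl6 differed by -1.01 ± 0.26 (0.0254). Rps20, with the most counts of the list, differed by -0.32 ± 0.26 (0.512). With the small libraries left out, 5 ribosomal protein genes fell, and without the LPS+ET gradient of LUL16 3 did. Ribosomal protein genes have many processed copies, between which the counting could split reads. Leaving out a single gradient ended the calls of Rpl4 (LPS LUL15 or LPS+ET LUL17, difference -0.80) and Rpl6 (LPS LUL15, LPS LUL16, LPS+ET LUL17 or LPS+ET LUL18, -0.99 to -0.82).

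Of 14 other TOP mRNAs none was called, although 11 differences were below 0 and the median was -0.36. The elongation factors Eef2 (-0.70 ± 0.25, adjusted p = 0.105) and Eef1g (-0.62 ± 0.20, 0.0705) had no overlap and did not pass. Of 39 initiation factors 3 fell and none rose, with a median of -0.23: Eif3k (-0.74 ± 0.18, 0.0226) and Eif3g (-0.99 ± 0.26, 0.0325) of the eIF3 scaffold, and Eif6 (-0.83 ± 0.23, 0.0353), which keeps the ribosomal subunits apart. Without either the small libraries or the LPS+ET gradient of LUL16, 1 fell, and Eif3g was at -0.63 without the former. Of 37 aminoacyl-tRNA synthetases, which charge tRNAs, 4 fell and none rose, where 3.67% and 2.54% of all genes did, 29 differences were below 0 and the median was -0.45, but 0.01 by DESeq2 on class sums. Sars, the enzyme for serine, had ratios of 1.05, 1.17, 1.37 and 0.71 in LPS and 0.08, 0.25, 0.10 and -0.08 in LPS+ET and differed by -0.99 ± 0.22 (0.0116), a call that was lost without the small libraries (-0.57) and by edgeR (-0.44). The others were those for glycine, Gars (-0.91 ± 0.21, 0.0173), glutamate and proline, Eprs (-1.26 ± 0.30, 0.0187), and valine, Vars (-0.69 ± 0.20, 0.0447). All 4 were without overlap. Of 45 ribosome biogenesis genes, Heatr1, a pre-rRNA processing factor, fell (-1.03 ± 0.23, 0.0124), as did Wdr43 (-0.75 ± 0.22, 0.0484), and the pseudouridine synthase Dkc1 rose (0.98 ± 0.25, 0.0248). The list median was -0.18, and 4 fell and 2 rose when the small libraries were left out. Calls lost without a single gradient were those of Eif3k (LPS LUL15, LPS LUL16 or LPS+ET LUL17, difference -0.72 to -0.68), Eif3g (any but LPS LUL16, LPS+ET LUL15 and LPS+ET LUL18, -0.98 to -0.79), Eif6 (any but LPS LUL16, LPS LUL17 and LPS+ET LUL18, -0.82 to -0.68), Gars (LPS LUL18, -0.71), Eprs (LPS LUL18, -1.10), Vars (any but LPS+ET LUL15, -0.74 to -0.55), Wdr43 (any but LPS+ET LUL17, -0.80 to -0.64) and Dkc1 (LPS LUL15, LPS LUL16, LPS+ET LUL16 or LPS+ET LUL17, 0.83 to 0.97).

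Genes of the integrated stress response, which phosphorylation of eIF2 sets off, had 5 falls and no rise among 22 measured, where 3.67% and 2.54% of all genes fell and rose, with a median of -0.19. Among them were the C/EBP partner Cebpg (-1.36 ± 0.35, adjusted p = 0.0254), the asparagine synthetase Asns (-0.70 ± 0.19, 0.0346), the mitochondrial folate enzyme Mthfd2 (-0.79 ± 0.20, 0.0248) and the serine synthesis enzyme Psat1 (-0.76 ± 0.21, 0.0383). The fifth was Ppp1r15b, a subunit of an eIF2 phosphatase, which is outside the naming rule. When the small libraries were left out, 3 fell and 1 rose, Psat1 (-0.41) was no longer called, and without the LPS+ET gradient of LUL16 1 fell. The loss of 1 gradient ended the calls of Cebpg (LPS LUL17, LPS LUL18 or LPS+ET LUL16, difference -1.30 to -1.01), Asns (any but LPS LUL16 and LPS+ET LUL18, -0.72 to -0.62), Mthfd2 (any but LPS LUL16, LPS LUL17 and LPS+ET LUL15, -0.78 to -0.71) and Psat1 (any but LPS LUL18 and LPS+ET LUL15, -0.76 to -0.66).

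B cell receptor signalling had 5 falls and 1 rise among 23 measured, where 3.67% and 2.54% of all genes fell and rose, and a median of -0.30. Prkcb (ENSMUSG00000052889, chromosome 7, 122288751 to 122634402), the protein kinase C that links the receptor to NF-kB, had ratios of 2.54, 2.44, 1.72 and 2.20 in LPS and 0.94, 0.19, 0.62 and 0.76 in LPS+ET. Its fall of 1.60 ± 0.24 (adjusted p = 0.00161) left a wide gap between groups and was called under all alternatives. Most of it lay between light and heavy polysomes, with a heavy-to-light difference of -1.22 (adjusted p = 0.00466). Nfatc1 (ENSMUSG00000033016, chromosome 18, 80606205 to 80713071), a calcium-regulated transcription factor, went from 1.36, 0.94, 1.66 and 1.34 to -0.29, -0.44, 0.25 and -0.11 and fell by 1.47 ± 0.27 (adjusted p = 0.00461). Plcg2, the phospholipase of the pathway, differed by -0.89 ± 0.23 (0.0277), while Pik3cd, the lymphocyte PI3 kinase, rose by 0.83 ± 0.21 (0.0237). When the small libraries were left out, 2 genes of this list fell and 2 rose. Calls that did not survive the removal of 1 gradient were those of Plcg2 (any but LPS LUL16, LPS+ET LUL15 and LPS+ET LUL17, difference -0.89 to -0.70) and Pik3cd (any but LPS LUL17, LPS+ET LUL16 and LPS+ET LUL18, 0.69 to 0.84).

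Among B and plasma cell transcription factors 2 of 28 fell, where 3.67% of all genes did, with a median of -0.21. Foxp1 (ENSMUSG00000030067, chromosome 6, 98925338 to 99257483), a forkhead factor of mature B cells, had ratios of 1.07, 1.00, 1.55 and 1.74 in LPS and 0.12, 0.06, -0.64 and -0.02 in LPS+ET, without overlap (-1.46 ± 0.24, adjusted p = 0.00267). Its heavy CPM went from 245 ± 21.9 to 65.8 ± 13.2. Ikzf3, a lymphoid zinc finger factor, differed by -0.81 ± 0.21 (0.026). Bcl2 (ENSMUSG00000057329, chromosome 1, 106538178 to 106714274), which protects B cells from apoptosis, was the only gene called among 25 apoptosis regulators, whose median was -0.21. It went from 1.19, 0.96, 1.58 and 0.85 to 0.19, -0.60, -1.02 and -1.22, and its ratio fell by 1.81 ± 0.29 (adjusted p = 0.00222), under all alternatives. Its heavy CPM went from 292 ± 35.8 to 66.3 ± 35.3 and its monosome CPM from 134 ± 26.7 to 95.9 ± 21.2, so that the mRNA was less abundant in both classes and most of all in the heavy one. Leaving out a single gradient ended the call of Ikzf3 (any but LPS LUL16, LPS+ET LUL15 and LPS+ET LUL18, difference -0.85 to -0.67).

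Of 27 receptor and surface proteins of B cells 2 rose and none fell, where 2.54% and 3.67% of all genes did. The median was 0.18. Ly6e, a GPI-anchored protein, had ratios of 1.05, 0.86, 1.52 and 1.63 in LPS and 1.91, 2.01, 2.19 and 2.29 in LPS+ET, which did not overlap, and rose by 0.83 ± 0.22 (0.0273). Of 8 measured immunoglobulin constant genes, which all had differences above 0 (median 1.37), the heavy chain gene Ighg3 was called. Its ratio went from -0.20, -0.51, 0.07 and 0.38 to 0.81, 1.54, 1.73 and 1.46 (1.45 ± 0.33, 0.015). Of the 8 genes, 4 rose without the small libraries, and 5 without the LPS+ET gradient of LUL16. Igkc, the kappa light chain and the gene with the most counts, had values of 0.99, 1.32, 1.33 and 1.39 and 1.62, 1.84, 1.93 and 2.21, did not overlap and did not pass (0.64 ± 0.28, adjusted p = 0.174). Of 48 genes of endoplasmic reticulum translocation and folding, which secreted proteins need, the disulfide isomerase Pdia6 rose (0.79 ± 0.19, 0.0187) and the oligosaccharyltransferase subunit Stt3b fell (-0.84 ± 0.22, 0.0278). The list median was 0.16, and without the small libraries 4 rose and 1 fell. Calls lost without a single gradient were those of Ly6e (LPS LUL15, LPS LUL16, LPS+ET LUL17 or LPS+ET LUL18, difference 0.70 to 0.80), Pdia6 (LPS LUL15, LPS LUL18 or LPS+ET LUL18, 0.73) and Stt3b (any but LPS LUL18, LPS+ET LUL15 and LPS+ET LUL18, -0.85 to -0.73).

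Interferon-response and antigen presentation genes rose where they were called, with 4 rises and no fall in each list, where 2.54% of all genes rose. Differences were below 0 for 14 of the 35 interferon-response genes and 10 of the 25 antigen presentation genes. Irf9 (ENSMUSG00000002325, chromosome 14, 55603571 to 55610030), the DNA-binding part of the interferon-activated complex ISGF3, had ratios of -0.36, -0.44, -0.44 and -0.37 in LPS and 0.60, 0.79, 0.94 and 0.68 in LPS+ET. The groups were far apart, with a rise of 1.15 ± 0.19 (adjusted p = 0.00267) in all alternatives. Oas2, an RNA-sensing synthetase (1.69 ± 0.40, 0.0176), Dhx58, an RNA helicase (1.08 ± 0.25, 0.0157), and Usp18, which removes ISG15 (0.98 ± 0.25, 0.0235), were the others of 35, whose median was 0.15. In this list 1 gene was called lower under TMM, beside 4 higher, and 1 without the LPS+ET gradient of LUL16, beside 5 higher. Tap2 (ENSMUSG00000024339, chromosome 17, 34203527 to 34216321), a subunit of the peptide transporter for class I molecules, had ratios of 1.50, 1.68, 1.32 and 1.46 and 2.64, 2.53, 3.25 and 3.14 and rose by 1.40 ± 0.23 (adjusted p = 0.00267), also in all alternatives. Its partner Tap1 rose by 0.64 ± 0.18 (0.0473), the immunoproteasome subunit Psmb9 by 1.08 ± 0.25 (0.0173) and the class II modulator H2-Ob by 0.76 ± 0.20 (0.0282). Tap1, Tap2, Psmb9 and H2-Ob are close neighbours on chromosome 17. The 25 measured genes of this list had a median of 0.18, and without the small libraries 2 rose, with Psmb9 at 0.45 and H2-Ob at 0.37. The loss of 1 gradient ended the calls of Oas2 (LPS LUL15, difference 1.57), Usp18 (LPS LUL15, LPS LUL16, LPS LUL18 or LPS+ET LUL15, 0.86 to 0.94), Tap1 (any but LPS LUL17 and LPS+ET LUL16, 0.55 to 0.69), Psmb9 (LPS LUL15 or LPS LUL18, 0.93 to 1.04) and H2-Ob (any but LPS LUL16 and LPS+ET LUL17, 0.70 to 0.77).

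RNA-binding proteins that act on AU-rich elements or repress translation had 5 falls and 1 rise among 38, and a median of -0.25. Of all genes, 3.67% fell and 2.54% rose. Their list medians were 1.21, 1.35, 1.80 and 1.24 in LPS and 1.11, 0.80, 0.74 and 1.15 in LPS+ET, without overlap. Ybx3 (ENSMUSG00000030189, chromosome 6, 131364858 to 131388450), a cold shock domain protein that represses translation, had ratios of -0.28, -0.42, -0.60 and -0.55 and -1.57, -1.66, -1.97 and -2.30 and fell by 1.41 ± 0.23 (adjusted p = 0.00267) under all alternatives. Most of its change lay between monosomes and light polysomes, at -1.12 (adjusted p = 0.000801). Ago2, the slicer of miRNA-guided silencing (the entry ENSMUSG00000036698), differed by -1.55 ± 0.36 (0.0166), Msi2, a Musashi protein, by -0.98 ± 0.22 (0.0133) and Hnrnpd, also known as AUF1, by -0.90 ± 0.22 (0.0188). Zfp36, which promotes decay of AU-rich mRNAs, rose by 0.65 ± 0.18 (0.039) from -2.11, -2.21, -2.20 and -2.31 to -1.72, -1.20, -1.75 and -1.55. In the list of 33 splicing factors Hnrnpd and Srsf3 (-0.78 ± 0.23, 0.0493) fell, Hnrnpk (0.83 ± 0.20, 0.018) and the SR protein kinase Clk1 (1.34 ± 0.31, 0.0158) rose, and the median was -0.22. Calls that did not survive the removal of 1 gradient were those of Hnrnpd (LPS LUL17, difference -0.71), Zfp36 (any but LPS+ET LUL15 and LPS+ET LUL17, 0.54 to 0.69), Srsf3 (any of the 8, -0.86 to -0.70) and Hnrnpk (LPS LUL15, 0.81).

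Immediate early genes, which signals switch on within minutes, went both ways, with 2 rises and 2 falls among 25. The list median of 0.03 changed sign with TMM or median-of-ratios scaling. Ier5 (ENSMUSG00000056708, chromosome 1, 155096367 to 155099636), an early gene of the heat shock factor circuit, had ratios of 1.15, 0.95, 1.44 and 1.59 in LPS and 0.06, -0.09, 0.04 and 0.43 in LPS+ET. It fell by 1.17 ± 0.21 (adjusted p = 0.0047), while its monosome CPM went from 115 ± 35.2 to 466 ± 145 and its heavy CPM from 272 ± 41.5 to 496 ± 127. The mRNA thus gained more in monosomes than in heavy polysomes. Dusp5, a nuclear phosphatase of ERK, fell (-1.62 ± 0.38, 0.017, but -0.93 and not called without the small libraries), and the clock gene Per1 (1.14 ± 0.25, 0.0111) and Zfp36 rose. Of 20 NF-kB subunits and inhibitors, Ikbkg, the regulatory subunit of the IkB kinase, fell (-1.12 ± 0.23, 0.00942), Bcl3, a nuclear IkB protein, rose (0.82 ± 0.21, 0.0265, but 0.53 and not called without the small libraries), and the median was -0.23. Of 151 genes named Zfp, 9 fell (5.96%) and 2 rose (1.32%), where 3.67% and 2.54% of all genes did. In all, 7.28% of them were called, against 6.21% of all genes, and the median was -0.08. The leading fall was Zfp146, from 1.02, 1.88, 1.78 and 1.98 to -0.44, -0.87, -0.01 and -0.31 (-2.07 ± 0.29, adjusted p = 0.00115), followed by the transcription factor Zfp281 (-1.49 ± 0.33, 0.013) and Zfp597 (-1.11 ± 0.26, 0.0179). Leaving out a single gradient ended the calls of Bcl3 (any but LPS LUL17 and LPS+ET LUL15, difference 0.71 to 0.86) and Zfp597 (LPS LUL15, -1.06).

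In the DNA replication list 5 of 40 genes rose and 1 fell, where 2.54% and 3.67% of all genes did. The list median was 0.18. The helicase subunit Mcm3 had ratios of 2.16, 2.47, 2.05 and 1.68 in LPS and 2.88, 3.00, 3.70 and 3.05 in LPS+ET (1.07 ± 0.26, adjusted p = 0.0187), and Mcm2 of the same ring rose by 0.78 ± 0.19 (0.0235). Rpa2, which coats single-stranded DNA, rose by 0.83 ± 0.19 (0.017). Pold2, a subunit of DNA polymerase delta, went the other way, from 1.46, 1.74, 2.64 and 2.08 to 0.54, 0.11, 0.19 and 0.32 (-1.69 ± 0.32, adjusted p = 0.00545). With the small libraries left out, 3 rose and 1 fell. Of 14 histone genes 2 rose and none fell, with a median of 0.43: the variant H2afz (1.22 ± 0.30, 0.0193) and Hist1h2ae (2.90 ± 0.59, 0.00854), which had 3 monosome counts in all of LPS+ET. The list medians did not overlap (0.53, -0.24, 0.56 and 0.43 against 0.98, 0.88, 1.27 and 0.84), but the median difference was -0.02 without the small libraries. Canonical histone mRNAs lack a poly(A) tail, and libraries primed at poly(A) see few of them. Of 40 genes of G2 and M phase, the centromeric histone Cenpa rose (0.98 ± 0.25, 0.024). That list's median of 0.05 changed sign with TMM or median-of-ratios scaling. Calls lost without a single gradient were those of Mcm3 (LPS LUL18 or LPS+ET LUL17, difference 0.89 to 0.93), Mcm2 (LPS LUL15, LPS LUL16, LPS+ET LUL15 or LPS+ET LUL18, 0.67 to 0.77), Rpa2 (LPS LUL15, 0.77), H2afz (LPS LUL16, LPS LUL18, LPS+ET LUL15 or LPS+ET LUL18, 1.00 to 1.15) and Cenpa (LPS LUL15, LPS LUL16 or LPS+ET LUL16, 0.74 to 0.97).

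DNA damage signalling and repair had 2 falls among 45 genes, where 3.67% of all genes fell, and a median of -0.17. Rnf168, a ubiquitin ligase at DNA breaks, went from 1.67, 1.59, 1.05 and 1.97 to 0.63, -0.16, 0.50 and 0.49 (-1.20 ± 0.28, 0.0176). Atr, the kinase of replication stress, differed by -1.68 ± 0.43 (0.0245) with overlapping gradients. Without the small libraries, 2 of this list fell and 3 rose. The loss of 1 gradient ended the calls of Rnf168 (LPS LUL15, difference -1.17) and Atr (any but LPS LUL16, LPS+ET LUL17 and LPS+ET LUL18, -1.60 to -1.42).

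All 7 measured mitochondrially encoded mRNAs, which mitochondrial ribosomes translate, had differences above 0, with a median of 1.07. Their list median was -3.49, -3.28, -2.80 and -3.65 in LPS and -2.08, -0.87, -2.96 and -2.92 in LPS+ET, and it overlapped between groups. Only mt-Nd4 and mt-Nd6, both of complex I, were called. Both rose, where 2.54% of all genes rose and 3.67% fell. mt-Nd4 had ratios of -3.49, -3.91, -2.89 and -2.91 and -2.14, -0.44, -2.17 and -2.27, where the LPS+ET value of LUL16 was the highest (1.55 ± 0.45, adjusted p = 0.0485). mt-Nd6 (2.95 ± 0.67, 0.0147) overlaps mt-Nd5 on the other strand. Without the small libraries none of the 7 was called, and the difference of mt-Nd6 was -0.36. Of 76 nuclear-encoded respiratory chain genes 3 rose and none fell, with a median of 0.14: Atp5j2 of ATP synthase (0.89 ± 0.22, 0.0226), Ndufa7 of complex I (1.10 ± 0.28, 0.0236) and Cox6a2 of complex IV (1.90 ± 0.51, 0.0324). None rose without the small libraries, where Atp5j2 was at 0.31 and Cox6a2 at 0.65, and 1 fell. Of 69 mitochondrial ribosomal proteins, Mrps12 rose (0.82 ± 0.22, 0.0363) and Mrpl24 fell (-0.86 ± 0.24, 0.0405), and the median was 0.15. Calls that did not survive the removal of 1 gradient were those of mt-Nd4 (any of the 8, difference 1.11 to 1.72), Atp5j2 (LPS LUL15 or LPS LUL16, 0.79 to 0.91), Ndufa7 (LPS LUL15, LPS LUL16, LPS+ET LUL17 or LPS+ET LUL18, 0.87 to 1.12), Cox6a2 (LPS LUL16, LPS LUL18, LPS+ET LUL16 or LPS+ET LUL18, 1.61 to 1.76), Mrps12 (any but LPS LUL17, LPS+ET LUL15 and LPS+ET LUL18, 0.71 to 0.88) and Mrpl24 (any of the 8, -0.93 to -0.77).

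In the remaining lists few genes passed the test. Of 26 genes of mTOR and amino acid transport, the glutamine transporter Slc1a5 rose, from -0.73, -0.66, 0.19 and -0.53 to 0.73, 0.74, 0.83 and 0.87 (1.22 ± 0.22, adjusted p = 0.00452). The list median of 0.18 was below 0 under 3 settings (lowest -0.12, without the LPS+ET gradient of LUL17). No gene was called among 12 of iron and polyamine metabolism (median 0.04), 24 chemokines, cytokines and receptors (median 0.15) and 4 measured myeloid markers (median 1.01). Of 6 measured B cell markers 1 rose and the median was 0.30, and no T cell marker reached 1200 counts. Of 114 long noncoding RNAs 3 rose and 3 fell (2.63% each, against 2.54% and 3.67% of all genes), with a median of 0.09. Without the small libraries 2 long noncoding RNAs rose and 8 fell. Their list median was -1.40, -1.48, -1.11 and -1.54 in LPS and -1.26, -0.87, -1.56 and -1.42 in LPS+ET, below that of all genes in every gradient.

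Some of the largest differences outside the lists rested on few reads. The largest falls among protein-coding genes without overlap were those of Ndst3 (-2.91 ± 0.42), the ETS factor Elf4 (-2.78 ± 0.60), the repressor Zhx2 (-2.44 ± 0.59), 2410089E03Rik (-2.40 ± 0.47), the F-box protein Fbxl12 (-2.34 ± 0.49), Tspyl3 (-2.30 ± 0.43), the RNA methyltransferase Mettl8 (-2.29 ± 0.40), the Rab exchange factor Dennd1b (-2.22 ± 0.36), the phosphatase Acp1 (-2.10 ± 0.50) and Gabpb2, a subunit of the ETS complex GABP (-2.10 ± 0.41). Their adjusted p ran from 0.00115 to 0.0187. The counted site of Ndst3 lay in an intron, so that the tag need not stand for its mRNA. Gabpb2 was called under all alternatives and went from 2.14, 1.98, 2.11 and 1.85 to 0.06, -1.58, 0.77 and 0.42. Elf4 and Zhx2 had 44 and 24 monosome counts in all of LPS. Dennd1b, with 90 monosome and 1692 heavy counts in LPS, went from 2.97, 2.61, 3.28 and 2.20 to 0.82, -0.26, 0.63 and 1.01. Without the small libraries the calls of Elf4 (-1.19) and Acp1 (-0.94) were lost. Leaving out a single gradient ended the calls of Zhx2 (LPS LUL17, difference -2.17) and Acp1 (LPS LUL17, -1.61).

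The largest rises by the same rule, after Plk2, mt-Nd6, Hist1h2ae and Serpine2 above, were those of the kinase Cdc42bpg (2.94 ± 0.48), Rasa2, a GTPase activator of Ras (2.71 ± 0.65), the ATP-gated channel P2rx7 (2.58 ± 0.55), 9530053A07Rik (2.48 ± 0.53), the mitochondrial creatine kinase Ckmt1 (2.47 ± 0.52) and the methionine sulfoxide reductase Msrb2 (2.37 ± 0.56). The rule leaves out genes whose gradients overlap. Called rises larger than that of Plk2 were found among these for Gm21738 (4.96 ± 1.05, adjusted p = 0.00949), Gm10801 (3.69 ± 1.07, 0.0473) and Gm10800 (3.48 ± 0.97, 0.0383), which were picked after their values had been seen. Several were barely present before etoposide. Ckmt1 had 3 monosome and 12 heavy counts in all LPS gradients and 76 and 1153 in LPS+ET. For 9530053A07Rik these were 7, 19, 57 and 1444, and for P2rx7 21, 62, 166 and 1889. Without the small libraries the calls of Rasa2 (1.27) and Msrb2 (0.71) were lost. The counted site of Rasa2 was intronic. Over the 8000 genes, 6855 counted sites lay in an untranslated or noncoding exon of the GENCODE annotation, 29 in a coding exon, 234 in an intron, 823 outside the annotated gene and 59 could not be placed. Calls lost without a single gradient were those of Rasa2 (LPS LUL17 or LPS LUL18, difference 2.21 to 2.49) and Msrb2 (LPS LUL15 or LPS LUL18, 2.13 to 2.29).

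The ratio followed the length of the coding sequence in both groups, and the span between short and long was smaller in LPS+ET. Of 7601 genes with an annotated coding sequence, those of up to 300 bases had a median LPS ratio of -0.62 and those over 4500 bases one of 2.07. The median difference between LPS+ET and LPS went from 0.36 in the first class (187 genes) to -0.32 in the last (377 genes). In the first class 20 genes (10.7%) were called higher and 1 (0.535%) lower. In the last, 5 (1.33%) were called higher and 23 (6.1%) lower, where 2.54% and 3.67% of all genes were. Taken per gradient, the longest class exceeded the shortest by 2.54, 2.87, 2.68 and 2.41 in LPS and by 2.14, 1.57, 1.79 and 1.95 in LPS+ET, so that no LPS+ET gradient reached the lowest LPS gradient. The means were 2.62 ± 0.19 and 1.86 ± 0.24 (SD, n = 4), given as a description. Cytosolic and mitochondrial ribosomal protein genes, mitochondrially encoded mRNAs and nuclear-encoded respiratory chain genes were then left out. The shortest class then held 158 genes, and its median difference was 0.38. Genes of the other lists stayed in.

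The 3′ untranslated region had a similar trend. Genes with up to 300 bases of it had a median difference of 0.01, and those with more than 4500 bases one of -0.38. Of these 364 longest, 28 (7.69%) were called lower and 3 (0.824%) higher, where 3.67% and 2.54% of all genes were. The median coding length was 1149 bases for genes called higher, 1521 for those called lower and 1302 for the others, and the median 3′ untranslated length was 749, 1488 and 1012 bases. Across genes, which are not independent, the Spearman correlation of the difference with coding length was -0.138 and with 3′ untranslated length -0.136. Both lengths came from 1 annotated transcript per gene, which need not be the one that was sequenced.

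**Figure D5:**
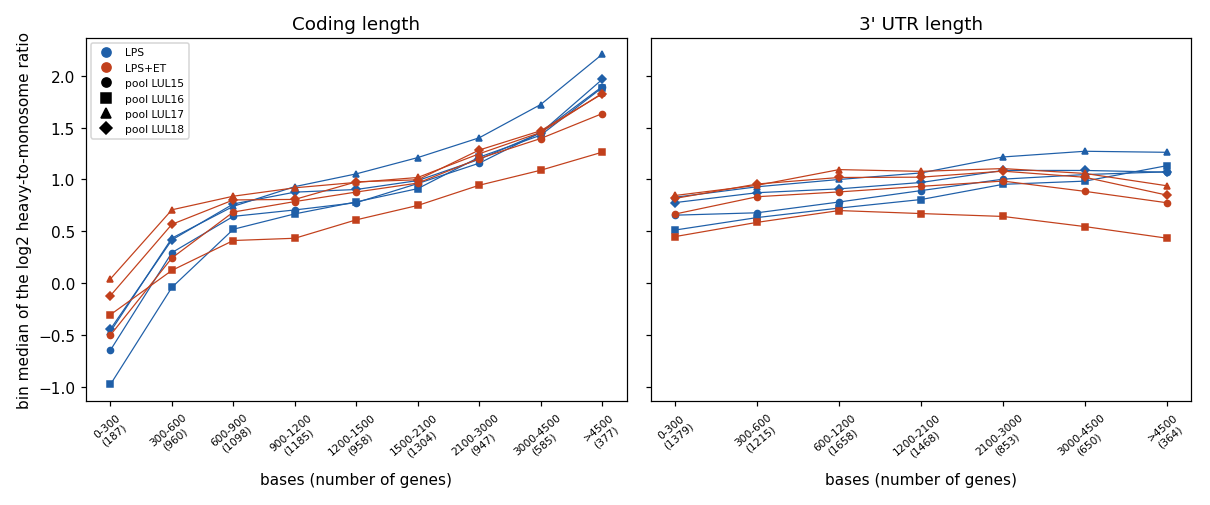
Median log2 heavy-to-monosome ratio (vertical) of genes binned by coding length (left) and 3′ untranslated length (right) in bases, with a line per LPS (blue) and LPS+ET (red) gradient and the number of genes under each bin. The ratio climbs with coding length in all 8 gradients and spans less in LPS+ET, and on the right the groups separate over 4500 bases.

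The LPS+ET+KU gradients differed from the LPS gradients by a median of 0.96 for the 203 genes called higher with etoposide alone and -0.95 for the 294 called lower. Both comparisons use the same 4 LPS gradients and are not independent of each other. For Ldha the ratio differences from LPS were -1.94 with etoposide alone and -1.26 with KU55933 before it, for Serpine2 2.56 and 2.46, for Ier5 -1.17 and -0.58 and for Trp53 1.13 and 0.93. The study reports less p53 mRNA in heavy polysomes when ATM was inhibited ahead of etoposide than with etoposide alone. LPS+ET+KU and LPS+ET were not compared with each other here, so these values do not address that report.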

How the data were processed

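Cleared lysates were separated on sucrose gradients, and the RNA of single fractions was sequenced from its poly(A) end. The deposited values are read counts per gene and library. Per the methods of the study, the authors put equal RNA concentrations of each fraction into reverse transcription, removed PCR duplicates by random barcodes and summed reads at poly(A) sites per Ensembl gene on GRCm38. TopHat2 2.0.12, HTSeq and DESeq2 1.6.3 are in the submitters' processing notes, without a role for these libraries. Of the library columns, 79 matched a single sample by name and 78 only a group. Deposited positions count from 0 and are given here from 1.

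For every gradient the log2 ratio of mean CPM in fractions 11 to 16 to that in fractions 4 to 7 was taken, each with 0.5 CPM added, for genes with 1200 or more counts. The ratios of all 12 gradients were fitted with limma 3.58.1 (R 4.3.3, moderated test with a variance trend), which shares 1 estimate of the spread over 3 treatments. P-values were adjusted over 8000 genes by the Benjamini-Hochberg method, and adjusted p under 0.05 counted as called. In the text "rose" and "fell" are used for called genes, and errors of differences are SE with 4 gradients per group. edgeR 4.0.16 and DESeq2 1.42.0 were used for alternatives. Single values per gradient were compared by exact permutation tests. The steps were tested on simulated data, and tables and plots were made with Python 3.11.15, numpy 2.4.6, pandas 2.3.3, scipy 1.17.1 and matplotlib 3.10.9.

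The members and the 40 gene lists were chosen with earlier results of these data known. Genes were named if the study follows them (Ccnd2, Tial1, Tia1, Pabpc1, Gadd45a, Cdkn1a, H2-K1, Hif1a and Trp53), if they were among the 10 largest rises or falls of called protein-coding genes without overlap, or, in a list, if they had the largest positive or negative moderated statistic, the most counts, or were among its first 4 called genes by p. Genes outside this rule are said to be so. Coding and 3′ untranslated lengths came from GENCODE M21, where 7941 of the 8000 genes were found and 7601 had a coding sequence. Pseudogene sequences were matched to mRNAs with blastn 2.17.0, and 173 of 199 had a match. Alternatives covered scaling, added CPM, count filters, fraction limits, libraries left out, gradients left out and a block by pool. 1 gene that this rule picks is not reported here.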

Additional observations from a re-analysis of the deposited data

Results flagged for a closer look

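In 15 of 318 groups of 4 gradients, a gradient lay far from the other 3, with a gap to its nearest neighbour beyond the 95% limit of Dixon for 4 values. Chance alone gives about 1 in 20 such groups. In the LPS group, the log2 heavy-to-monosome ratio stood apart for Elf4 in LUL17 (5.04, against 2.53 to 2.94 in the others), Fbxl12 in LUL17 (0.78, against -1.34 to -0.99), Mvd in LUL15 (0.20, against 0.38 to 0.39), Psma6 in LUL18 (2.05, against 1.58 to 1.63), Atr in LUL16 (1.46, against 2.74 to 2.89) and Hnrnpk in LUL16 (1.49, against 0.99 to 1.06).

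In the LPS+ET group, the gradient of LUL16 stood apart for Zhx2 (-2.25, against 0.23 to 0.62), Fbxl12 (-3.63, against -2.85 to -2.73), Plk2 (1.88, against 0.56 to 0.64), Eprs (1.14, against 2.09 to 2.23) and mt-Nd4 (-0.44, against -2.27 to -2.14), and that of LUL15 for Ldha (0.97, against 0.32 in the other 3). The Ldha value was still below every LPS gradient. List medians stood apart in the LPS gradient of LUL16 for nuclear-encoded respiratory chain genes (-0.0584, against 0.34 to 0.42) and histones (-0.24, against 0.43 to 0.56), and in that of LUL18 for the chaperones (1.13, against 1.41 to 1.43). The table also holds a fraction 17 library of LPS in LUL16 with 777 counts, which entered no ratio.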

How the results depend on the processing

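The count of 497 genes called in the heavy-to-monosome ratio became 282 with only the 8 LPS and LPS+ET gradients fitted, 291 with monosomes as fractions 4 to 6, 218 and 199 with heavy polysomes as fractions 11 to 13 and 14 to 16, 135 at an adjusted p under 0.01, and 925 (edgeR) and 1045 (DESeq2) on counts summed per class. Of the 497, 279 were called with 8 gradients, 421 with TMM, 321 with median-of-ratios scaling, 291 without the small libraries (543 calls), 346 by edgeR and 362 by DESeq2. The share of calls that were higher was 40.8%, with 173 of 541 calls under TMM, 35.1% under median-of-ratios scaling and 45.2% with centred ratios. Leaving out 1 gradient gave 267 (LPS LUL15) to 414 calls, and 51.0% of them were higher without LPS LUL17. For the light-to-monosome ratio this gave 170 to 336 calls (285 with every gradient, and 187, 183 and 170 without LPS+ET LUL15, LUL17 or LUL18). For the heavy-to-light ratio it gave 37 to 150 (122 with every gradient, and 40, 37 and 45 without LPS LUL15, LUL16 or LUL17, and 81, 47 and 61 without LPS+ET LUL16, LUL17 or LUL18). With the pool as a replicate block the 3 counts were 855, 510 and 443, and all 497 genes were among the 855. The main fit used no block by pool. Gradients of the same pool correlated in their deviations at 0.000232 to 0.323 (median 0.11), 7 of 12 over 0.1. Those of different pools correlated at -0.33 to 0.203 (median -0.0277), 6 of 36 over 0.1, and 7 of 12 gradients correlated best with their own pool. The same-pool median was thus the higher. For the 4 same-pool pairs of LPS with LPS+ET it was 0.0496, with 1 over 0.1. Over 119 named genes and 26 alternatives, 2439 of 3068 values kept sign and side of the threshold, 607 lost the call, 12 gained it (Ccnd2 under 5 alternatives, Rps20 by edgeR and DESeq2, H2-K1 by DESeq2, and Eef1g, Igkc and Eef2 with the pool as a replicate block, Eef2 with 12 gradients and with 8) and 10 changed sign. The changes of sign were those of Hif1a (0.0790 without small libraries, 0.0218 with heavy fractions 11 to 13, 0.0180 by edgeR, 0.0628 by DESeq2), Tia1 (-0.47, -0.13, -0.22 and -0.18 in the same order), Pabpc1 (0.54 with heavy fractions 11 to 13) and mt-Nd6 (-0.36 without small libraries). Of 109 called named genes 25 were called under every alternative, 34 were lost without the small libraries and 38 with 8 gradients. Of the list medians, those of 6 lists changed sign under 3 or more of the 26 alternatives: iron and polyamine genes (7), immediate early genes (6), G2 and M phase (4), cholesterol synthesis (4), kinesins and tubulins (3) and mTOR and amino acid transport (3). The medians of ribosome biogenesis, apoptosis regulators, long noncoding RNAs and pseudogenes did so under 2, and those of the synthetases, mitochondrial ribosomal proteins, histones, DNA damage genes, NF-kB genes and B cell surface proteins under 1. The causes were not tested. Few counts lay behind genes such as Ckmt1 and 9530053A07Rik, with 3 and 7 monosome counts over all LPS gradients.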
